A study of Mus musculus with 31 samples.

Results

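Of the 31 BXD strains of this liver panel (labelled BxD/TyJ), 27 were ordered by the log2 ratio of Dbp minus that of Arntl. The 9 strains at the top of the order were compared with the 9 at the bottom. The rule set aside strains 23, 28, 40 and 42, so 27 strains were ranked, and 18 of the 31 strains entered the comparison. The strains were thus chosen by the measured ratios of Dbp and Arntl, with 1 probe each, and those values are described below without a test. BXD strains are recombinant inbred mice whose founders were the inbred strains C57BL/6J and DBA/2J. Each strain was 1 array, which carried pooled liver RNA from 3 males at 8 weeks of age (20 ug, red dye) beside that of a pool of 9 C57BL/6J mice (green dye), with no exchange of dyes. No treatment or transgene is named for either group, and the time of day of tissue collection is not given in the sources used here. The deposited ratios are taken as log2 of strain over C57BL/6J pool, the likely reading. A p-value measures the spread between strains, each a pool of animals with no second array.

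The circadian clock of liver cells is a loop of transcription factors. ARNTL (also called BMAL1) and CLOCK or NPAS2 bind E-boxes and switch on Per, Cry, Nr1d1 and Dbp, the PER and CRY proteins inhibit them in turn, and NR1D1 and NR1D2 hold Arntl down. In mouse liver the RNA of Arntl and that of Dbp run close to opposite in phase over the day, and DBP, a PAR bZIP factor, carries the rhythm to D-boxes in genes of metabolism and detoxification. Other genes with E-boxes peak near Dbp (Nr1d1, Per3, Tef, Usp2), and Npas2, Clock, Cry1 and Nfil3 peak nearer to Arntl.

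To show the elements meant, these are all exact matches in the promoters of measured clock genes, with the element in capitals and 10 bases on each side, 5′ to 3′ on the strand of the gene (RefSeq, GRCm38.p6). The motifs shown, searched on both strands of the 250 bases before each start, were the E-box CACGTG and the D-box TTATGTAA or TTACGTAA. These do not overlap each other.
Per1 E-box, chr11:69098773-69098798, plus strand: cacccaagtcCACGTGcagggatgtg
Tef E-box, chr15:81802536-81802561, plus strand: gctgtggctcCACGTGctgcagctgg
Tef E-box, second start, chr15:81811266-81811291, plus strand: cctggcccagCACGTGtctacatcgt
Cry1 E-box, chr10:85185099-85185124, minus strand: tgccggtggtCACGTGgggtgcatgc
Per3 D-box, chr4:151044806-151044833, minus strand: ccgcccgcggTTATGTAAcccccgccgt
Per3 D-box, chr4:151044853-151044880, minus strand: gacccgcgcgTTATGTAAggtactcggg
Timeless D-box, chr10:128237899-128237926, plus strand: agtagaccagTTATGTAAgtaaaacttg
The windows of Dbp and Arntl held no match, which says only that these letters are not in those windows.

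Dbp minus Arntl ran from -0.27 in strain 33 to 0.71 in strain 38 in the high group, with a median of 0.04. In the low group it ran from -2.45 in strain 31 to -0.91 in strain 6, with a median of -1.06. From the top the high group held strains 38, 8, 15, 36, 39, 34, 5, 22 and 33, and the low group, towards the bottom, strains 6, 12, 32, 21, 13, 9, 24, 1 and 31. The order was nearly continuous at its limits: strain 20, just outside the high group, stood at -0.31 beside -0.27 in strain 33, and strain 29, just outside the low group, at -0.84 beside -0.91 in strain 6.

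Dbp itself was between -0.10 and 0.92 in the high group (median 0.05) and between -0.86 and -0.52 in the low group (median -0.76). The high strains were thus near the C57BL/6J pool or above it, and all 9 low strains were below it. Arntl was between -0.25 and 0.32 in the high group (median 0.04) and between 0.16 and 1.83 in the low group (median 0.34), so its values overlapped between the groups. Strain 31 alone held the value of 1.83, and the next highest low strain, strain 1, was at 0.59. Ordering the 27 strains by Dbp alone kept 8 of the 9 high and 8 of the 9 low strains, whereas ordering by Arntl alone kept 6 of each.

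**Figure D1:**
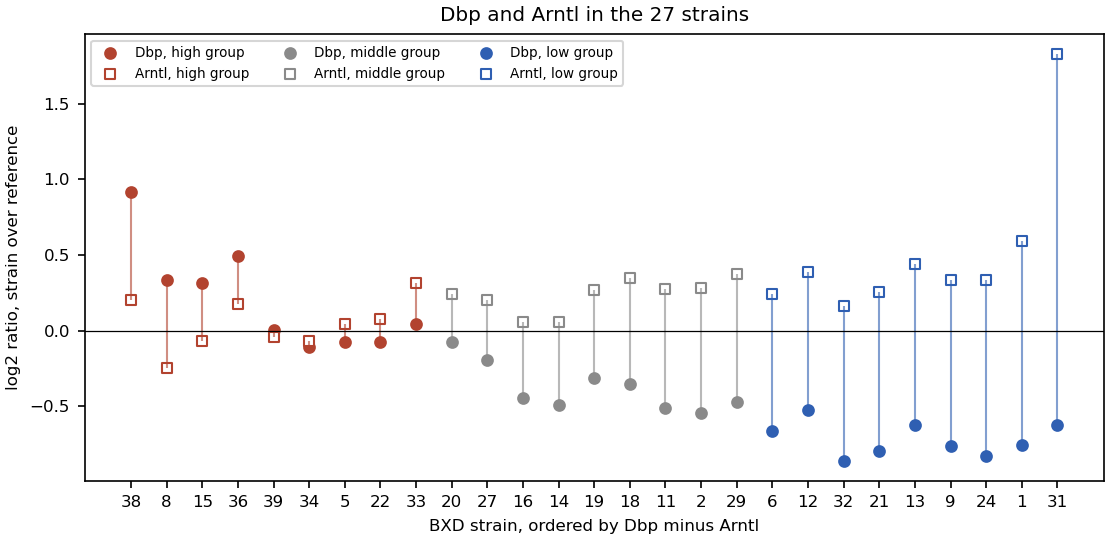
The log2 ratio of Dbp (filled circles) and of Arntl (open squares) in each of the 27 ranked strains, in the order of Dbp minus Arntl, with a line joining both values of a strain; red is the high group, grey the middle 9 strains and blue the low group. Dbp falls from 0.92 in strain 38 to values between -0.86 and -0.52 in the low group, and Arntl stands at 1.83 in strain 31 only.

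Since both genes chose the strains, how they vary together is also given as a description. Over the 27 strains Dbp and Arntl had a Pearson r of -0.39 and a Spearman rho of -0.56. Without strain 31, r was -0.52. Without the pair of strains farthest from the median of Dbp, 36 and 38, r was -0.47, and over all 31 strains it was -0.46.

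The groups also differed in how their arrays stood to the rest. All 5 ranked strains numbered above 32 (33, 34, 36, 38 and 39) fell in the high group and none in the low group. By the order of sample accessions, which forms 2 runs, the high group held 2 strains of the first run and 7 of the second, and the low group 5 and 4. The median correlation of an array with the other 26 was between 0.58 and 0.77 in the high group and between 0.74 and 0.80 in the low group, with strains 38 (0.58), 8 (0.68) and 15 (0.69) the lowest. The arrays set aside by the rule were lower still, between 0.06 and 0.37.

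The leading axis of variation across the 27 arrays, the first principal component of all probes but Dbp and Arntl, held 18.8% of the variance. Scores on it ran from 0.046 to 0.265 in the high group and from -0.132 to -0.003 in the low group, with no overlap. Dbp minus Arntl had an r of 0.77 and a rho of 0.76 with this score, and an r of 0.81 without strains 38 and 31, given as a description. Dbp alone had an r of 0.87 and a rho of 0.79 with the axis. Arntl had an r of -0.36 and a rho of -0.50 with it, and an r of -0.50 without strain 31. With array likeness Dbp minus Arntl had an r of -0.58.

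**Figure D2:**
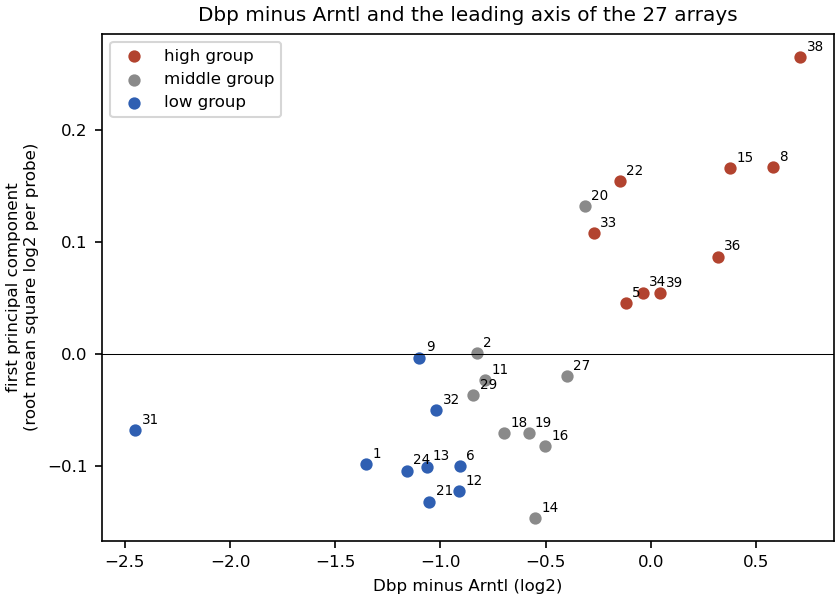
Dbp minus Arntl (log2, horizontal) against the score on the first principal component (vertical, root mean square log2 per probe) for the 27 strains, labelled by strain number and coloured by group. All 9 high strains lie at 0.046 or above on the vertical axis and all 9 low strains at -0.003 or below, so the groups do not overlap on it.

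Because the groups are also apart on this axis, differences below cannot be told apart from differences between arrays or strains that lie along it. The genes below are named for what was measured, not for a clock phase.

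Most of the other clock genes did not pass the test. Of 24 probes for 20 clock genes, none was called higher in the high group and 2 were called lower, which is 8.33% of these probes beside 12.4% of all 21765 probes tested (limma, Benjamini-Hochberg adjusted p under 0.05), and 5 had an unadjusted p under 0.05. An unadjusted p under 0.05 by limma was reached by 6411 of the 21763 probes other than Dbp and Arntl. That is the background for every such count of a list below. The median difference of the 24 clock probes was 0.03, beside -0.01 for all probes. In none of the 24 probes were all 9 high strains beyond all 9 low strains, a state that 0.666% of all probes showed.

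Among genes that peak near Dbp, none of the 11 probes of 10 genes passed in the comparison, nor in any of the 37 alternative settings, and 1 had an unadjusted p under 0.05 by limma. The nuclear receptor Nr1d1, which represses Arntl, lay between -0.37 and 0.36 in the high group (median -0.02) and between -0.25 and 0.18 in the low group (median -0.08). Its groups overlapped almost wholly, with a difference of 0.04 and a 95% interval from -0.16 to 0.23. The related receptor Nr1d2 differed by 0.02 (-0.17 to 0.22), Per1 by -0.06 (-0.24 to 0.13), Per2 by 0.10 (-0.10 to 0.30) and Per3, whose D-boxes are shown above, by 0.10 (-0.09 to 0.30).

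Tef, the PAR bZIP relative of Dbp whose E-boxes are shown above, had 1 probe at 0.17 (-0.02 to 0.37, adjusted p = 0.23) and another at 0.02 (-0.23 to 0.28). The deubiquitinase Usp2 was at 0.14 (-0.02 to 0.30), the cell cycle kinase Wee1 at 0.10 (-0.14 to 0.34) and the repressor Bhlhe40 at -0.13 (-0.34 to 0.09). Each of these intervals includes 0. Cry2, a partner of the PER proteins, was lower by 0.29 with an adjusted p of 0.17. Its value in strain 38 was -1.33, whereas the median of the high group was -0.16 and that of the low group -0.04.

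On the side of Arntl, none of 5 probes of 4 genes passed, and 1 had an unadjusted p under 0.05 by limma. Clock, which encodes the partner of ARNTL, differed by -0.03 (-0.20 to 0.13), Npas2, its paralog, by 0.14 (-0.07 to 0.36), and Cry1, whose E-box is shown above, by 0.01 (-0.24 to 0.26). Nfil3, a repressor at D-boxes, had 1 probe at -0.19 (-0.34 to -0.03, adjusted p = 0.099) and 1 at 0.11 (-0.04 to 0.25). The first passed without strain 32. Across the 27 strains the first of these correlated with Arntl at r = 0.64 and the second at r = 0.03. Clock stood at 0.27 with Arntl, Cry1 at 0.16 and Npas2 at -0.30. Strains 31 and 1 held the highest values of Arntl (1.83 and 0.59) and of the first Nfil3 probe (0.19 and 0.25). The r of that probe without strain 31 was not computed. These r values are a description over arrays that share a reference and a normalization.

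The clock gene probes that were called belonged to kinases that phosphorylate clock proteins. Csnk1e, casein kinase 1 epsilon, was between 0.11 and 0.56 in the high group (median 0.29) and between 0.16 and 1.08 in the low group (median 0.82). The groups overlapped, the difference was -0.42 ± 0.10 (SE, n = 9 a group) and its adjusted p was 0.014. One of 3 probes of Gsk3b, glycogen synthase kinase 3 beta, was lower by 0.34 (adjusted p = 0.049), and the other two stood at 0.32 (adjusted p = 0.080) and 0.06. That Gsk3b call was lost on leaving out any 1 of 14 strains (differences between -0.38 and -0.28 without 1 strain), whereas Csnk1e passed without each of the 18 in turn. The Gsk3b probe at 0.32 passed without strain 5 only. Rora, an activator of Arntl, differed by 0.16 (-0.05 to 0.37), Timeless by 0.05, Arntl2 by -0.01 and the ubiquitin ligase subunit Btrc by 0.03.

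**Figure D3:**
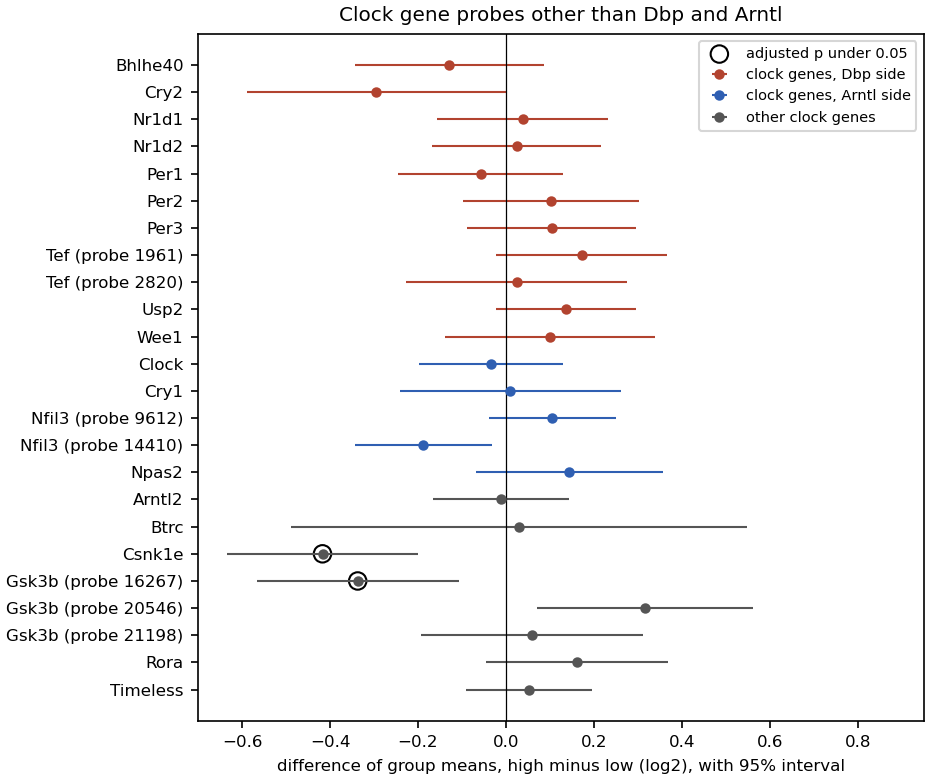
Difference of group means, high minus low (log2), for each of the 24 clock gene probes with its 95% interval; red marks genes that peak near Dbp, blue those that peak near Arntl and dark grey the others, and a ring marks an adjusted p under 0.05. Only Csnk1e (-0.42) and 1 of 3 Gsk3b probes (-0.34) are ringed, and no red or blue interval reaches above 0.37.

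Over all probes, 1417 were higher in the high group and 1271 lower, leaving out both ranking genes (with Dbp, 6.52% and 5.84% of those tested). Most differences were small: 2116 of the called probes differed by less than 0.5, the median size was 0.36, and 53 differed by 1 or more, 45 of them higher. In 145 probes, the ranking gene Dbp among them, the groups did not overlap, with the high strains above in 82 and below in 63. The 9 middle strains, which had no part in the fit, had a mean between those of the groups in 90.6% of called probes and in 52.8% of all probes. Called probes have wide gaps between the groups by selection, and a middle mean falls into a wide gap more readily. These shares are therefore a description only. Called probes had a median absolute r of 0.65 with the leading axis, and probes not called 0.27. Since the groups are apart on that axis, a higher r in called probes follows in part from their selection. With the score on that axis as a covariate 2 probes were called, and none of them was among those called without it. The score is made from these same probes and the groups do not overlap on it, so this fit leaves little group difference to test. Ordering the strains by Arntl alone gave 0 calls by limma (2013 at an unadjusted p under 0.05), whereas ordering by Dbp alone gave 2357.

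Enzymes of fatty acid oxidation under the nuclear receptor PPAR-alpha held the largest difference. Cyp4a10, a microsomal fatty acid omega-hydroxylase, was between 0.21 and 1.79 in the high group (median 1.36) and between -1.69 and 0.18 in the low group (median -0.69). All 9 high strains were above all 9 low strains, 3.97-fold on average (1.99 ± 0.23, adjusted p = 9.4e-05). The neighbouring family member Cyp4a14 was between -0.13 and 2.62 (median 0.93) against -1.47 to 0.30 (median -0.13), higher by 1.33 ± 0.28 (adjusted p = 0.0060), with 8 of 9 high strains above every low one. Acadm, the medium-chain acyl-CoA dehydrogenase of mitochondrial beta-oxidation, was higher by 0.59 (adjusted p = 0.0016). These and Vnn1 (0.33) were the 4 higher among 25 probes of the list, 16.0% beside 6.52% of all probes, none was lower, and the list's median was 0.002. Cyp4a12a, another member of the family, stood at -0.42 with an adjusted p of 0.33.

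Fatty acid synthesis was divided within itself. Scd1, stearoyl-CoA desaturase, was between -3.49 and -2.11 in the high group (median -2.62) and between -2.10 and -0.18 in the low group (median -1.02). Both groups were below the C57BL/6J pool and the high strains were all below the low ones, by 1.62 ± 0.22 (adjusted p = 0.00023). Fasn, fatty acid synthase, was between -0.01 and 1.04 (median 0.59) in the high group against -0.67 to -0.04 (median -0.41) in the low group, again with no overlap and in the opposite direction, 0.99 ± 0.12 (adjusted p = 0.00013). Dgat2, which makes triglyceride, was higher by 1.01 (adjusted p = 0.0041), and Acly, the ATP citrate lyase that supplies acetyl-CoA, was lower by 0.57 (adjusted p = 0.021). Of 23 probes of the list 3 were higher and 3 lower, 13.0% each way beside 6.52% and 5.84% of all probes. Insig2, which retains the sterol sensor in the endoplasmic reticulum, was lower by 0.62 (adjusted p = 0.0028) and was the 1 called of 21 probes for cholesterol synthesis and uptake (4.76%, beside 5.84% of all probes lower).

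**Figure D4:**
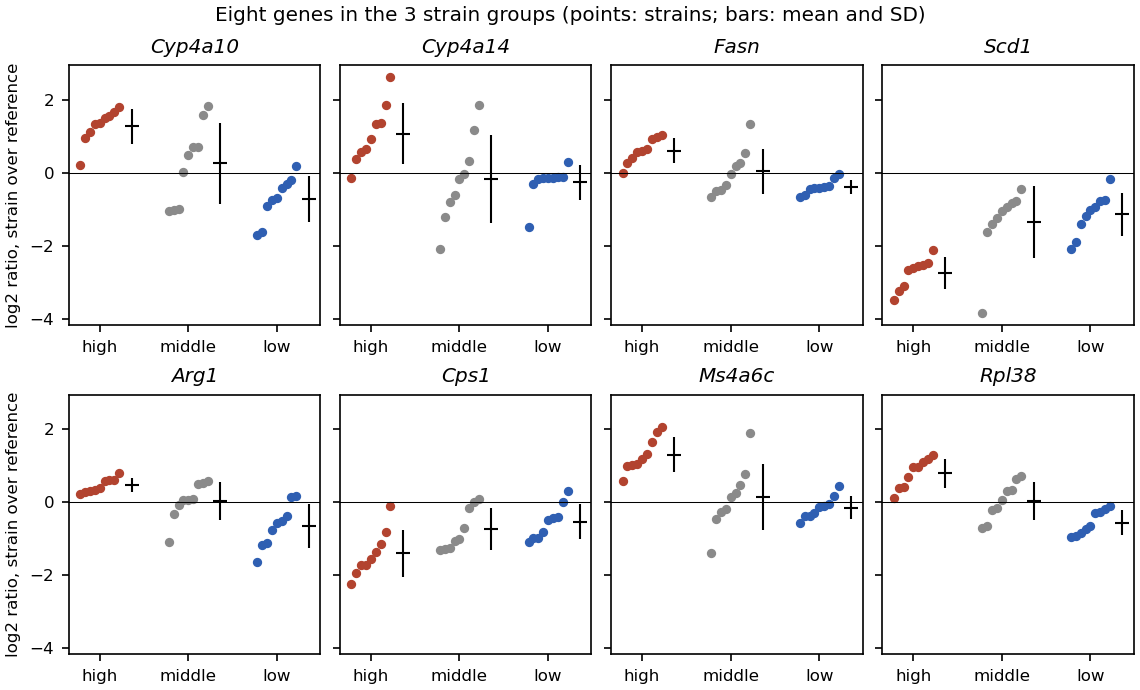
Log2 ratios of 8 genes in the high (red), middle (grey) and low (blue) strains, 1 point a strain sorted by value within its group, with the mean and SD of the group beside the points. Cyp4a10, Fasn, Arg1, Ms4a6c and Rpl38 are higher in all 9 high strains than in any low strain, Scd1 is lower in all of them, and the points of Cyp4a14 and Cps1 overlap.

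The metabolism of glucose and nitrogen likewise moved gene by gene. G6pc, the glucose 6-phosphatase that releases glucose, was lower by 0.76 (adjusted p = 0.032), whereas Cebpb, a transcription factor of the fasting response, was higher by 0.48 (adjusted p = 0.030). Txnip, an inhibitor of thioredoxin induced by glucose, was lower by 0.41 (adjusted p = 0.035), and 3 of 17 probes on the fasting list were higher and 2 lower (17.6% and 11.8%, beside 6.52% and 5.84% of all probes). The G6pc call was lost without strain 6, 8, 12 or 24 (differences between -0.87 and -0.59 without 1 strain), and that of Cebpb without strain 12, 15, 21, 24 or 33 (0.40 to 0.54). That of Txnip was lost without any 1 of 9 strains (-0.47 to -0.36). Arg1, arginase of the urea cycle, was between 0.21 and 0.80 (median 0.38) in the high group and between -1.65 and 0.18 (median -0.58) in the low group. Its groups did not overlap (1.11 ± 0.19, adjusted p = 0.0019). Cps1, which starts the same cycle, was between -2.25 and -0.11 (median -1.55) against -1.08 to 0.31 (median -0.48). It was lower by 0.86 ± 0.24 (adjusted p = 0.022), with 7 of 9 high strains below all low ones.

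Among genes downstream of PAR bZIP factors, 3 of 26 probes of detoxification and related genes were higher and 1 was lower (11.5% and 3.85%, beside 6.52% and 5.84% of all probes), with a median difference of 0.09. Ugt2b1, a glucuronosyltransferase, was lower by 0.79 (adjusted p = 0.011), and Nr1i2, the pregnane X receptor, higher by 0.47 (adjusted p = 0.023). Adjusting for the place of a probe in the order of features, described below, left Nr1i2 with an adjusted p of 0.055. Cyp2c39 (0.49, adjusted p = 0.059, passing without strain 5, 9, 15, 34 or 39) and the uridine phosphorylase Upp2 (0.62, adjusted p = 0.43) did not pass. Among promoters of the RefSeq table, the D-box stood in 0.721% of the 832 genes that were higher, in 0.985% of the 711 that were lower and in 0.915% of the 11584 tested. The E-box stood in 9.62%, 9.00% and 8.71% in the same order. Over the 27025 genes of the table the shares were 1.10% for the D-box and 6.86% for the E-box.

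Signals that move with feeding, stress hormones, temperature and inflammation were mixed. Mt1, a metallothionein induced by glucocorticoids and zinc, was between 1.55 and 3.65 in the high group (median 3.65) and between 0.11 and 3.09 in the low group (median 1.79), a difference of 1.37 ± 0.36 (adjusted p = 0.017). In the high group 5 strains sat, and in the low group none, at the upper limit that the deposited values of every array share, 3.65. Their order is thus not known, nor is the full size of the difference or its SE. The feedback inhibitor of EGF receptor Errfi1, also a glucocorticoid target, was lower by 0.59 (adjusted p = 0.011), and these were the calls among 13 such probes (7.69% each way, beside 6.52% and 5.84% of all probes). Of 16 heat shock and temperature probes 3 were higher (18.8%, beside 6.52%), among them the co-chaperone Chordc1 (0.58, adjusted p = 0.0032) and the mitochondrial chaperonin Hspd1 (0.53, adjusted p = 0.0036), and 1 was lower, Hspb1 (-0.39, adjusted p = 0.044), a call lost without any 1 of 12 strains (-0.48 to -0.36). Of 18 probes for chaperones of the endoplasmic reticulum 4 were lower, 22.2% beside 5.84% of all probes, and none higher, with a median of -0.21. The disulfide isomerases Pdia4 (-0.52 ± 0.12, adjusted p = 0.011) and Pdia3 (-0.40 ± 0.10, adjusted p = 0.014) led them, with Hsp90b1 and Canx, whose call was lost without strain 15 or 36 (-0.39 to -0.28). Xbp1, on the same list, stood the other way at 0.43 and did not pass (adjusted p = 0.088 by limma). The probes of Hspa5, at -0.41 (adjusted p = 0.057) and 0.07, did not pass either.

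Acute phase genes had 2 higher and 4 lower of 24 probes (8.33% and 16.7%, beside 6.52% and 5.84% of all probes). The pentraxin Apcs was higher by 0.98 (adjusted p = 0.031) and haptoglobin, Hp, by 0.90 (adjusted p = 0.029), and both calls were lost on leaving out some single strains. Apcs did not pass without strain 6, 21, 24 or 38 (differences between 0.81 and 1.12 without 1 strain), nor did Hp without strain 1, 6, 15 or 21 (0.71 to 1.03). Fgg, the gamma chain of fibrinogen, was lower by 0.86 ± 0.16 (adjusted p = 0.0023), with 4 of 9 high strains below all low ones. Of 15 probes for genes higher in male liver 2 were higher (13.3%, beside 6.52% of all probes), the cytochromes P450 Cyp2d9 (0.48, adjusted p = 0.0061) and Cyp2u1 (0.48, adjusted p = 0.037, lost without any 1 of 8 strains, 0.38 to 0.56). The median of this list was -0.19, and its members with the lowest values did not pass: the major urinary protein genes Mup2 (-0.91, adjusted p = 0.080) and Mup3 (-0.48 and -0.23) and the complement gene C6 (-0.67, adjusted p = 0.075), which passed without strain 34. Of 18 for genes higher in female liver none passed, nor did any at an unadjusted p under 0.05 by limma (beside 6411 of 21763 probes).

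Among the other genes with the largest differences the high side held Ms4a6c, Rpl38, Terb2, Scel, Tmem70, Llgl2, Tead2, Mamstr and Tuba4a. Ms4a6c, a membrane protein of the MS4A family, was between 0.58 and 2.04 (median 1.17) against -0.58 to 0.44 (median -0.12), with no overlap (1.45 ± 0.17, adjusted p = 9.4e-05). It followed the leading axis with r = 0.95. The meiotic telomere protein gene Terb2 was higher by 1.59 ± 0.41 (adjusted p = 0.017), with 7 high strains above all low ones and others as low as -0.96. Scel, sciellin of the cornified envelope, Tmem70, an assembly factor of ATP synthase, and Llgl2, a cell polarity protein, were higher by 1.41, 1.37 and 1.36. The TEA domain factor Tead2 was higher by 1.29. Single probes of Mamstr (1.26) and of the alpha tubulin Tuba4a (1.26) were called, while the second probe of each stood at -0.10.

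The low side was led, after Scd1, by Klrb1b, a lectin-like receptor of natural killer cells (-1.34 ± 0.21, adjusted p = 0.0010), whose second probe was at -0.56 (adjusted p = 0.20). Car3, a carbonic anhydrase, was lower by 1.15, and the selenium-binding protein Selenbp1 by 1.07. A probe of the pseudogene Eef1a1-ps1 was between -2.29 and -0.97 (median -1.27) against -0.60 to -0.08 (median -0.33), with no overlap (-1.07 ± 0.14, adjusted p = 0.00023). The pregnancy-specific glycoprotein gene Psg17 had no overlap either (-0.90 ± 0.13, adjusted p = 0.00032). Serp1, which protects membrane proteins under stress, was lower by 0.96, the ciliary protein gene Tmem216, the cadherin Cdh11 and the zinc finger gene Zfp438 each by 0.92, the sialomucin Cd164 by 0.91 and Memo1 by 0.87. Hybridisation between a probe and near-identical relatives, as for Eef1a1-ps1, the Cyp4a genes or Ugt2b1, was not tested.

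Probes of 1 gene often differed. Of 902 genes with exactly 2 probes, 51.4% had both differences of the same sign, and of the 220 with at least 1 call 13 had both called, 6 of them the same way. Each gene name therefore stands for 1 probe.

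The cytosolic ribosomal protein genes, a list drawn up after the values were seen, had 25 of 77 probes higher and 1 lower, and 51 did not pass. That is 32.5% higher, beside 6.52% of all probes, with a median difference of 0.25. The mean of the list was between 0.02 and 0.53 in the high group and between -0.09 and 0.23 in the low group, so the groups overlapped. Rpl38 was between 0.12 and 1.29 (median 0.95) against -0.97 to -0.11 (median -0.66), with no overlap (1.35 ± 0.16, adjusted p = 9.4e-05), and Rpl26 (0.78) and Rpl9 (0.77) followed. With array likeness as a covariate 8 were higher, with the index as a numeric term 8, with 13 strains a side 9, with strains up to 32 only 13, and with the leading axis as a covariate or the order by Arntl alone none. The place of a probe moved with this count. Probes at every 8th place in the order of features were called more often than others, 15.6% against 11.9%, and 75.9% of those called were higher, against 48.7% elsewhere. Of the ribosomal probes, 10 of 17 at such places were higher and 15 of 60 at other places. Of the probes named as called, those of Rpl38, Rpl26, Arg1, Dgat2, Tmem70, Hspd1, Mamstr, Ndufa2, Psmd12, Nr1i2 and Ndufa8 sit at such places. With each place centred on its own median, Nr1i2 and Ndufa8 (adjusted p = 0.055 and 0.058) no longer passed and the others did. Of probes elsewhere, Gsk3b (0.057), Cd74 (0.056) and Cela3b (0.054) lost their calls in the same way. The part of the array order in these results was not tested further.

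Of 86 oxidative phosphorylation probes 6 were higher and 4 lower, 6.98% and 4.65%, near the 6.52% and 5.84% of all probes. They included subunits of ATP synthase on both sides, Atp5j (0.82, adjusted p = 0.0048) and Atp5md (-0.58, adjusted p = 0.044), with Ndufa2 (0.59) and Ndufa8 (0.57) of complex I higher. The call of Atp5md was lost without any 1 of 11 strains (-0.67 to -0.50) and that of Ndufa8 without any 1 of 14 (0.49 to 0.69). Of 41 proteasome probes 3 were higher, Psmd12 (0.76), Psmd4 (0.43) and Psmc4 (0.28), which is 7.32% and near the 6.52% of all probes, and none was lower. Both lists were also drawn up after the values were seen.

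Markers of cell types were read for the liver as a whole, and in whole tissue fewer cells of a type and less RNA per cell cannot be told apart. For the cell type lists below, 6.52% of all probes higher and 5.84% lower is the background. At an unadjusted p under 0.05 by limma the background is 6411 of 21763 probes. Of 24 hepatocyte probes 1 was higher (Arg1, 4.17%) and 3 lower (12.5%), among them Cps1 and 1 of 4 probes of transferrin, Trf (-0.57, adjusted p = 0.031), whose call was lost without any 1 of 6 strains (-0.65 to -0.44). The mean of the list was between -0.12 and 0.32 in the high group and between -0.06 and 0.29 in the low group. None of 18 Kupffer cell and macrophage probes passed, although 9 had an unadjusted p under 0.05, and their mean was between -0.03 and 0.33 against 0.08 to 0.18. Endothelial and stellate markers gave 2 higher, Acta2 and Cdh5 (0.40 each), and 1 lower of 20 (10% and 5%), with means between 0.02 and 0.21 against 0.09 to 0.24. Differences on this list ran from -0.42 to 0.40, so other members lay as far the other way. The endothelial marker Pecam1 was between 0.08 and 0.64 in the high group and between 0.41 and 1.59 in the low group. None of 7 cholangiocyte probes passed, although 2 had an unadjusted p under 0.05, with means between -0.21 and 0.01 against -0.33 to -0.12.

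Lymphocyte markers gave 1 higher and 3 lower of 27 (3.70% and 11.1%, beside 6.52% and 5.84% of all probes). Cd74 (0.28) was higher, and Nkg7 (-0.30) and 2 of the 9 Ighm probes (-0.38 and -0.21) were lower, while the other Ighm probes were between -0.08 and 0.25. The call of Cd74 was lost without any 1 of 13 strains (0.24 to 0.31), and each Ighm call without any 1 of 12 (-0.43 to -0.31 and -0.24 to -0.19). Their means were between -0.12 and 0.16 against 0.01 to 0.11. The alpha globin Hba-a1 was higher by 0.80 and was the 1 called of 6 erythroid probes (16.7%), with means between -0.06 and 0.31 against -0.25 to 0.12. Of 12 adipose tissue probes Car3 alone was called (8.33%), and the list's means were between -0.37 and -0.10 against -0.38 to -0.09. Differences on the adipose list ran from -1.15, that of Car3, to 0.52. Exocrine pancreas gave 1 higher and 4 lower of 27 (3.70% and 14.8%), among them Amy1 (-0.46) and the elastase Cela3b (-0.42, lost without any 1 of 6 strains, -0.46 to -0.30), with means between -0.30 and 0.06 against -0.07 to 0.19. The means of all these lists overlapped between the groups, and the part of other cell types in the differences was not tested.

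How far the calls held depended on the axis and the strains. With a term for strains numbered above 32, 1358 probes were called, and without strains 38, 8 and 15 there were 1046. With the likeness of each array as a covariate 475 were called, 458 of them also called as reported. Of the 71 named probes that passed, none passed with the leading axis as a covariate, with strains ordered by Arntl alone or in the first run of accessions alone. The axis is made from the tested probes and parts the groups, so the fit with it cannot show whether a call holds. The first run has 2 high and 5 low strains and gave 1 call over all probes, and the order by Arntl alone gave 0. Failing in these settings is thus no result about the named probes. Cyp4a10, Scd1, Fasn, Ms4a6c and Rpl38 each passed in all 34 of the other alternatives. Under the axis as a covariate Cyp4a10 was at 2.42 (adjusted p = 0.090) and Fasn at 1.23 (adjusted p = 0.097), while Ms4a6c fell to 0.19 (adjusted p = 0.86). Scd1 was then at -1.22 (adjusted p = 0.50) and Rpl38 at 0.88 (adjusted p = 0.48).

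**Figure D5:**
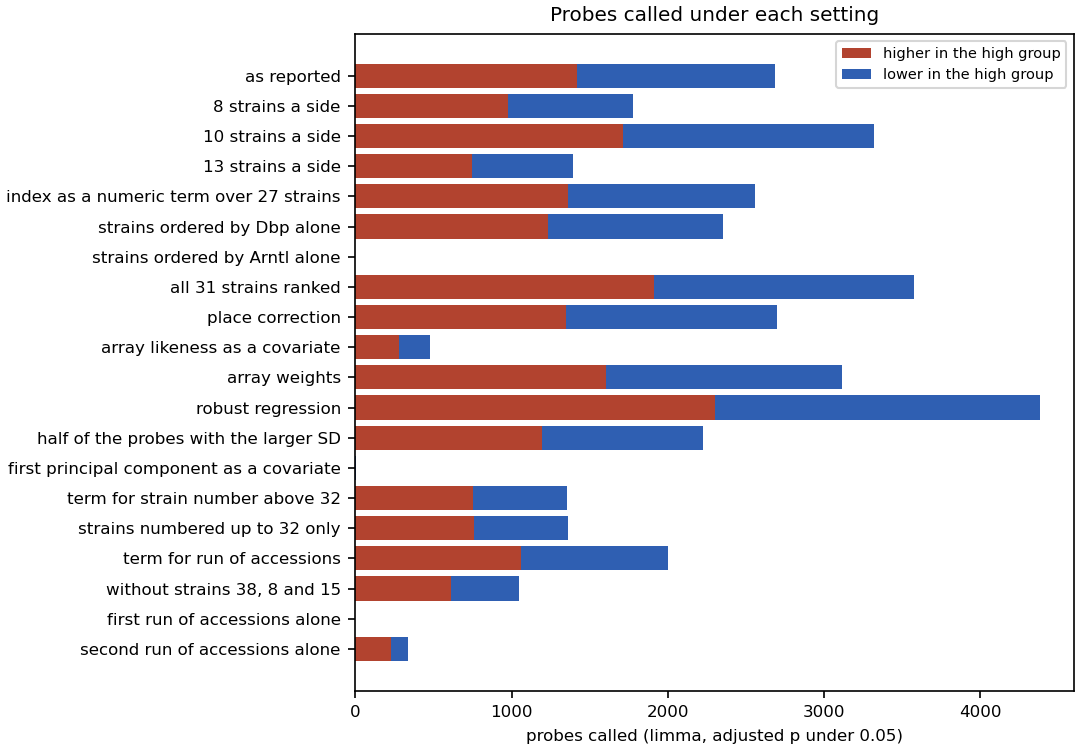
Number of probes called in the comparison as reported and in 19 alternative settings, split into those higher (red) and lower (blue) in the high group; the horizontal axis counts probes with an adjusted p under 0.05. The bars fall from 2689 as reported to 475 with array likeness as a covariate, 2 with the first principal component as a covariate and 0 with strains ordered by Arntl alone. They rise to 3117 with array weights, 3319 with 10 strains a side, 3579 with all 31 strains ranked and 4381 by robust regression.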

How the data were processed

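The authors deposited normalized log ratios, read here as log2, for which the submitters' processing notes name R 2.0.0 and limma. The sources used here do not give log base, direction, background correction or normalization. All arrays share 1 distribution (median -0.001, SD 0.51). Intensities were not used, so signal over background is not known; the number of arrays sets the precision. Of 23040 features 1275 were empty and 21765 were tested. Platform annotation, updated through RefSeq (GRCm38.p6), named 15964 probes and left an older name on 678, while 134 had several genes and 4989 none.

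High minus low was fitted with limma 3.58.1 in R 4.3.3 (lmFit, eBayes, two-sided, Benjamini-Hochberg over all probes, 0.05), and the script was tested on simulated data. Correlations with Dbp, Arntl or their difference, which chose the strains, are descriptions with no test. Named were all measured clock genes, the 12 highest and 12 lowest called genes that are no clone names, and up to 4 of each list by size, and later genes from the added lists. Several list members picked by size that did not pass are left out of the text. Among them are Itih4 (0.84), Gadd45b (-0.43) and Dnaja1 (-0.36), so the named genes lean towards called ones. Hsp90b1, Canx, Vnn1 and Cyp2u1 were added to complete small counts. Members and lists were chosen with earlier results of these data known. Alternatives changed group size, ranking gene, strains, place, weights, regression and covariates.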

Additional observations from a re-analysis of the deposited data

Results flagged for a closer look

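In 20 of 230 sets of 9 values looked at, the highest or lowest strain stood apart from the other 8, and chance gives this in about 1 of 20 sets. Strain 38 accounted for 9 of the 20. In the high group it had the lowest array likeness (0.583), 1 of 2 Tef probes at -0.47, Cry2 at -1.33, the uncalled Klrb1b probe at -1.62, Cdh11 at -2.60, Cela3b at -0.90, Mup2 at -2.94 and both Mup3 probes, at -1.76 and -1.03. The other high strains so marked were strain 36 with Selenbp1 at 1.31, and strains 8 and 22 with single Trf probes at -0.96 and 1.12. In the low group strain 9 had 1 Mup3 probe at 2.04 and Ndufa8 at -0.61, and strain 13 had Upp2 at 0.96 and Psmc4 at 0.12. Strain 31 had Chordc1 at -0.99, strain 1 Rora at -0.77, strain 32 Cyp4a14 at -1.47 and strain 6 Cdh11 at 0.91.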

How the results depend on the processing

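Each strain was 1 array, so precision rests on 9 strains a group. Leaving out 1 strain at a time gave between 2010 and 3079 called probes, of which between 1961 and 2507 were also called as reported. The counts of all called, higher and lower probes were 1777, 979 and 798 with 8 strains a side, and 1393, 744 and 649 with 13 a side. They were 475, 282 and 193 with array likeness as a covariate, 4381, 2302 and 2079 by robust regression, and 1358, 756 and 602 with a term for strains above 32. They were 1363, 757 and 606 with strains up to 32 only, 1046, 613 and 433 without strains 38, 8 and 15, and 340, 230 and 110 in the second run of accessions alone. The first run alone gave 1, 0 and 1 (2276 at an unadjusted p under 0.05 by limma), the first principal component as a covariate 2, 0 and 2 (1797 unadjusted), and Arntl alone 0, 0 and 0 (2013 unadjusted). Of these, fewer strains enter the smaller groups and the single runs, and the cause of the other changes was not tested. With places centred the r of Dbp and Arntl was -0.36. With the first principal component, which is made from the tested probes and parts the groups, as a covariate the direction turned for some probes. It gave Llgl2 at -0.10, Tead2 at -0.33, Mamstr (probe 19544) at -0.0072, Tmem216 at 0.11, Cdh11 at 0.40, Ugt2b1 at 0.042, G6pc at 0.097, Txnip at 0.041, Hspb1 at 0.090, Ighm (probe 20335) at 0.38, Cela3b at 0.27 and Ndufa8 at -0.39, and ordering by Arntl alone gave Ighm (probe 20335) at 0.0039 and Ndufa8 at -0.0098. No paired analysis was possible because the strains carry no shared replicate numbers.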
